A study of Mus musculus with 8 samples.

Results

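The interleukin-1 family and the inflammasome were described here through 10 genes, taken as the named rows of a count table with 40838 genes in all. The ligands were Il1a, Il1b, Il18 and Il33. The antagonists were Il1rn and Il18bp, the receptor subunits Il1r1 and Il1rap, and the inflammasome genes Nlrp3 and Casp1. All 10 were found, and all 10 had enough reads to be tested among 17438 genes.

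RNA was sequenced from 8 liver samples of C57BL/6 mice, all fed for 16 weeks a diet that produces nonalcoholic steatohepatitis (NASH), a fatty liver with inflammation. After the first 7 weeks, the mice of 4 samples (the Lpcat3 group) received an adeno-associated virus (AAV) carrying Lpcat3, and those of the other 4 (the eGFP group) a virus carrying the reporter eGFP. Both viruses used the TBG promoter, which is active in hepatocytes, and 9 more weeks of the diet followed. Lpcat3 encodes an acyltransferase that places polyunsaturated fatty acids into membrane phospholipids. Both groups thus share the diet and a virus, and no sample on a normal diet or without virus was analysed here. Whether each sample is its own animal is not said in the labels. The p-values therefore describe the spread among these 8 samples, which may be technical.

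Interleukin-1 alpha and beta signal through the receptor Il1r1 with its partner Il1rap, and the antagonist encoded by Il1rn occupies that receptor without signalling. Interleukin-1 beta and interleukin-18 are made as inactive precursors and are cut by caspase-1 once an inflammasome sensor such as Nlrp3 has assembled. In liver, macrophages are the main source of interleukin-1 beta, hepatocytes carry the receptor and answer with acute phase proteins, and interleukin-33 is a nuclear alarmin of structural cells. RNA levels give neither the cutting of the precursors nor the secreted proteins, and neither was measured here.

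The promoters of 4 members are shown because these genes took different courses between the libraries. Il1a and Il1b lie close together on chromosome 2 and their levels differed in pattern, and Il1rn and Il33 both stood far above the other libraries in eGFP replicate 3. Each run is the 250 bases before a RefSeq transcription start, 5′ to 3′ on the gene's strand, from the assembly GRCm38.p6, which is not the build GRCm39 named for the counts. Capitals mark the TATA box TATAAA on the gene's strand, the C/EBP consensus TTNNGNAA, the PU.1 core GAGGAA and the NF-kB consensus, the last 3 on both strands. Capitals of the C/EBP and PU.1 motifs overlap in Il1a.
Il1a, chr2:129309973-129310222, minus strand: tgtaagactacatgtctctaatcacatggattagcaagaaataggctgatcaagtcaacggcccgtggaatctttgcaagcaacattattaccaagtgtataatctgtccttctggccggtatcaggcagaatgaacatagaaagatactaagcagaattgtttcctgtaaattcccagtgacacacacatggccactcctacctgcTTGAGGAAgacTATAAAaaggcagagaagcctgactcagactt
Il1b, chr2:129371140-129371389, minus strand: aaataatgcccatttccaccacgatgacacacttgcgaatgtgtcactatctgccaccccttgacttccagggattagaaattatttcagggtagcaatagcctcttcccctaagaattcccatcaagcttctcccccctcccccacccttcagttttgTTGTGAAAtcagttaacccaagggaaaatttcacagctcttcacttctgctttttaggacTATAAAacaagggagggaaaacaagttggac
Il33, the downstream of 2 starts, chr19:29945540-29945789, plus strand: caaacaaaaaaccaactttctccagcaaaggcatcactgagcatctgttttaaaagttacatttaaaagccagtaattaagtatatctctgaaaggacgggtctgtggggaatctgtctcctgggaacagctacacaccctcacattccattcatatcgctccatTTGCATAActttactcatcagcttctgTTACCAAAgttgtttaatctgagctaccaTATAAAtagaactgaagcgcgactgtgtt
Il1rn, the last of 3 starts, chr2:24345121-24345370, plus strand: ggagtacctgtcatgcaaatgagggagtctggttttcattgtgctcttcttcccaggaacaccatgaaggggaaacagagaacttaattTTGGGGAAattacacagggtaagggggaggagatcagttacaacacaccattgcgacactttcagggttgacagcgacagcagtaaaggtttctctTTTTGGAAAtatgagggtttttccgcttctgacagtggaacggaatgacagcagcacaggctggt

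A TATA box began 32 bases before the start in Il1a, 31 in Il1b and 29 in Il33, while the Il1rn window had none. Of the 10 members only these 3 genes held that motif, in 4 of 15 windows. Of all 32851 RefSeq promoter windows of this length, 7.59% held it. The C/EBP consensus was present in each of the 4 windows shown, in 11 of the 15 windows of the 10 members, and in 36.8% of all windows. It was found in 7 of the 10 members, and Il18, Il1rap, Casp1 and the first start of Il1rn had no match. The NF-kB consensus was in none of the 4, in 7.25% of all windows, and, among the 15 windows of the 10 members, in 1 of Il1r1 and 1 of Nlrp3. The PU.1 core was in the windows of Il1a, Nlrp3 and Casp1 and in 23.3% of all windows. Such a match is only a match of letters in this window. Counts are per gene, so reads from the several starts of Il33, Il1rn, Il1r1 and Nlrp3 cannot be separated.

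The delivered gene was checked first. Lpcat3 was at 274, 401, 465 and 311 CPM in Lpcat3 replicates 1 to 4 and at 158, 148, 133 and 173 CPM in eGFP replicates 1 to 4, so the groups did not overlap. Its log2 fold change was 1.25 (SE 0.17), with an adjusted p of 0.164 in edgeR and 9.96e-09 in DESeq2, so it was not the gene edgeR called. CPM values are counts scaled to the library total after TMM normalization. Library totals ran from 22433625 to 25651874 counts, and the hepatocyte markers, such as Alb, summed to 42400 to 86811 CPM, with no marker of that list at 0 in all libraries. Across all genes edgeR called 1 gene of 17438 at an adjusted p under 0.05, 0.00573% of those tested, and DESeq2 called 48. On the first principal component, with 40.6% of the variance, eGFP replicate 3 lay at -46.4 and Lpcat3 replicate 3 at 49.97, the 2 ends. The titles also carry code numbers of unstated meaning. Codes 1290 and 1317 hold eGFP replicates 1 to 3 and Lpcat3 replicate 1, and codes 1344 and 1345 hold the other 4 libraries, so the codes are unevenly divided between the groups. Code 1317 holds only eGFP replicate 3, and code 1344 only Lpcat3 replicates 2 and 3. A fit with the 4 codes as a factor thus takes its group difference from codes 1290 and 1345 alone.

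None of the 10 members passed the test across all genes (0 of 10 by edgeR and 0 of 10 by DESeq2). At an unadjusted edgeR p under 0.05, 4 members were lower in the Lpcat3 group and 0 were higher, where 5.18% of all genes tested were lower by that measure. These were Il1b, Il33, Il18bp and Casp1. The estimated difference was below 0 for 7 of 10 members, against 51.5% of all genes, and the median log2 fold change was -0.48, against -0.0065 over all genes. The members were chosen with earlier results of these data known, so these shares beside those of all genes are no test. No member separated the groups completely (0 of 10), whereas 2.24% of all genes were lower without overlap and 1.93% higher without overlap. The count of 4 was 0 without eGFP replicate 3, without Lpcat3 replicate 2, and without both libraries numbered 3. Without Lpcat3 replicate 2 the estimates stayed near those of all libraries, at -0.94 for Il1b, -0.84 for Il33, -0.43 for Il18bp and -0.48 for Casp1. The count of 4 was also 0 when the fit held the division of the codes into 1290 and 1317 against 1344 and 1345. It was 0 too with the 4 codes as a factor, where only codes 1290 and 1345 inform the group difference. It was 6 without eGFP replicate 4, 5 without eGFP replicate 2, 2 without eGFP replicate 1, 3 without Lpcat3 replicate 1, and 1 without Lpcat3 replicate 3 or without Lpcat3 replicate 4. With no filter on low counts and with limma-voom it was 2 each.

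**Figure D1:**
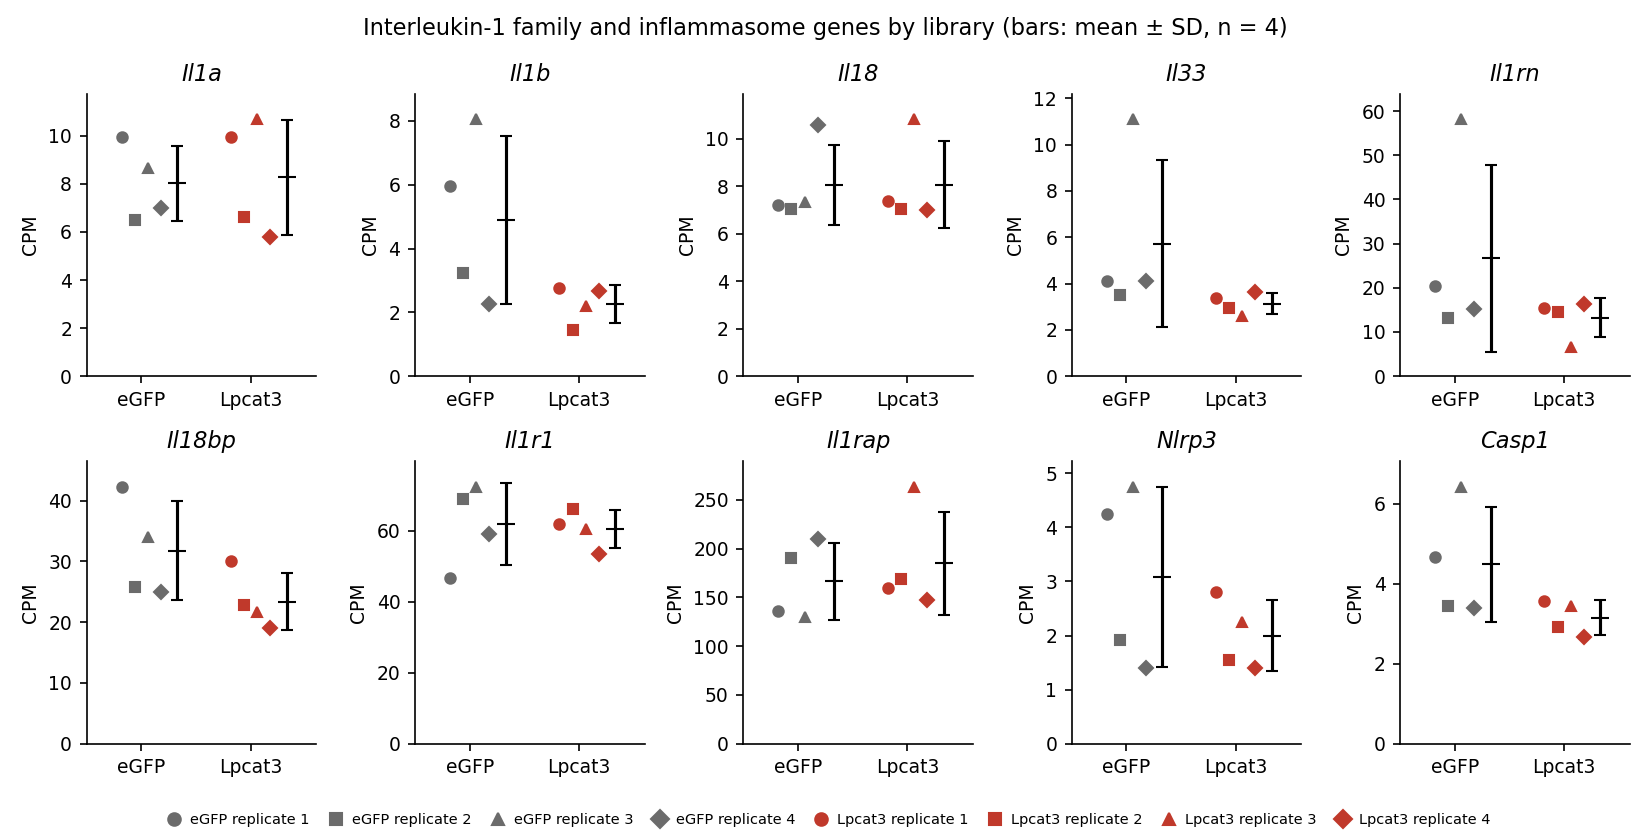
CPM of the 10 genes in each library, with 4 points per group, markers by replicate number and bars for the mean ± SD. In eGFP replicate 3, Il1rn reached 58.2 CPM and Il33 11.1 CPM, while Il1a and Il18 had similar means in both groups.

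Among the ligands, Il1b had the largest estimated difference of the 10 genes in the fit of all libraries. It was at 5.97, 3.23, 8.06 and 2.27 CPM in eGFP replicates 1 to 4 and at 2.75, 1.46, 2.21 and 2.67 CPM in Lpcat3 replicates 1 to 4. The eGFP libraries ranged widely, with replicates 1 and 3 high and replicate 4 inside the range of the Lpcat3 group, which was low throughout. The means were 4.88 ± 2.63 and 2.27 ± 0.59 CPM (SD, n = 4 each), a 2.15-fold lower mean in the Lpcat3 group. In edgeR the log2 fold change was -1.10 (SE 0.39; 95% interval -1.99 to -0.22; unadjusted p 0.0197), and the adjusted p over all genes was 0.565. DESeq2 gave an adjusted p of 0.276.

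Few reads lay behind these Il1b values, from 33 to 217 per library. The exact 95% Poisson interval of the lowest count, in Lpcat3 replicate 2, was 22.7 to 46.3 reads, and such intervals cover counting error only. Without eGFP replicate 3 the log2 fold change was -0.75, with the code division in the fit -0.61, and with the 4 codes in the fit -0.34. Within codes 1290 and 1317 the difference of mean log2 CPM was -0.94, and within codes 1344 and 1345 it was -0.14. Each of these within-code values rests on a single library of 1 group, Lpcat3 replicate 1 in the first and eGFP replicate 4 in the second.

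Il1a, the other agonist of the same receptor, had similar means in both groups. Its levels were 9.94, 6.49, 8.65 and 6.98 CPM in eGFP replicates 1 to 4 and 9.94, 6.63, 10.7 and 5.81 CPM in Lpcat3 replicates 1 to 4. The groups overlapped, and the lowest and the highest value were both in the Lpcat3 group, the highest in replicate 3, where Il1b was low. The log2 fold change was 0.04 (SE 0.22, 95% interval -0.45 to 0.53). The Il1b estimate of -1.10 from all libraries lay outside that interval, but the Il1b interval, -1.99 to -0.22, overlapped it. The difference between the 2 genes was not tested. The number of Il1b reads per Il1a read was 0.601, 0.497, 0.931 and 0.325 in eGFP replicates 1 to 4 and 0.277, 0.22, 0.206 and 0.459 in Lpcat3 replicates 1 to 4. This ratio was chosen after its values were seen and was not tested, and Lpcat3 replicate 4 was above eGFP replicate 4.

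Il18, a ligand made constitutively by several liver cells and cut by caspase-1, had equal means in both groups. It stood at 7.23, 7.07, 7.35 and 10.6 CPM in eGFP replicates 1 to 4 and at 7.40, 7.07, 10.8 and 7.00 CPM in Lpcat3 replicates 1 to 4. In each group 3 libraries lay close together and 1 was higher, eGFP replicate 4 and Lpcat3 replicate 3. The log2 fold change was 0.00 (SE 0.19), with a 95% interval from -0.41 to 0.42. In the assembly GRCm38 the Il18 locus overlaps Bco2 and Tex12. Bco2, at 19.9 CPM in each group, was above Il18 itself, and Tex12 was at 0.802 and 0.561 CPM in the eGFP and Lpcat3 groups. Whether counting used strand is not given in the sources used here, so reads of overlapping genes cannot be told apart. Il1a likewise overlaps Gm14023, at 1.26 CPM in each group, and Il1rap overlaps Gm20319, at 6.32 and 6.98 CPM in the eGFP and Lpcat3 groups. Il1b and Il33 overlap Il1bos and Gm41832, with 7 and 8 reads in all libraries together.

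Il33, the alarmin, was at 4.13, 3.51, 11.1 and 4.13 CPM in eGFP replicates 1 to 4 and at 3.36, 2.96, 2.59 and 3.62 CPM in Lpcat3 replicates 1 to 4. The library eGFP replicate 3 stood above all others, and the remaining 7 lay between 2.59 and 4.13 CPM. The means were 5.72 ± 3.60 and 3.13 ± 0.45 CPM (SD, n = 4 each). In edgeR the log2 fold change was -0.87 (SE 0.37; 95% interval -1.70 to -0.04; unadjusted p 0.0416, adjusted p = 0.581). Without eGFP replicate 3 it was -0.32, and with the 4 codes in the fit -0.19. Its receptor gene Il1rl1 had 23 reads in all 8 libraries together and was not tested.

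The antagonist gene Il1rn varied most between libraries, 8.67-fold from the lowest to the highest. Its levels were 20.4, 13.2, 58.2 and 15.2 CPM in eGFP replicates 1 to 4 and 15.3, 14.5, 6.71 and 16.3 CPM in Lpcat3 replicates 1 to 4. The extremes were the libraries numbered 3, high in eGFP and low in Lpcat3, and the other 6 lay from 13.2 to 20.4 CPM with the groups mixed. The log2 fold change of -1.01 (SE 0.49; unadjusted p 0.0659, edgeR adjusted p = 0.604) was -0.30 without eGFP replicate 3 and -0.08 without both libraries numbered 3. The number of Il1rn reads per Il1b read, which is not corrected for length and was compared only between libraries, ran from 3 to 9.71. The group difference of that ratio was within the spread of the libraries (difference of mean log2 ratio 0.14; two-sided exact permutation p = 0.771, adjusted over 5 ratios 0.771).

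Il18bp encodes the secreted protein that binds and neutralises interleukin-18. It was at 42.3, 25.7, 34.0 and 24.99 CPM in eGFP replicates 1 to 4 and at 30.04, 22.8, 21.7 and 19.1 CPM in Lpcat3 replicates 1 to 4. In 3 of 4 Lpcat3 libraries the level was below every eGFP liver, and Lpcat3 replicate 1 lay inside the eGFP range. The means were 31.8 ± 8.14 and 23.4 ± 4.69 CPM (SD, n = 4 each), and the log2 fold change was -0.44 (SE 0.19; 95% interval -0.88 to -0.0034; unadjusted p 0.0486, edgeR adjusted p = 0.587). Unlike Il33 and Il1rn, it depended little on eGFP replicate 3 (-0.41 without that library) and more on eGFP replicate 1 (-0.27 without it). With the code division in the fit it was -0.21. Reads of Il18bp per Il18 read were 3.89 in the eGFP group and 2.90 in the Lpcat3 group as geometric means, a difference within the spread of the libraries (log2 difference -0.43; exact permutation p = 0.286, adjusted over 5 ratios 0.571). Leaving out 1 library gave -0.23 without eGFP replicate 1, -0.25 without Lpcat3 replicate 3 and -0.67 without eGFP replicate 4.

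The receptor subunits had group means within the spread of the libraries. Il1r1, the signalling receptor of interleukin-1, was at 46.6, 69.0, 72.4 and 59.1 CPM in eGFP replicates 1 to 4 and at 61.9, 65.9, 60.6 and 53.4 CPM in Lpcat3 replicates 1 to 4. The Lpcat3 libraries lay inside the eGFP range, and the log2 fold change was -0.03 (SE 0.13, 95% interval -0.33 to 0.26). Il1rap, the partner shared by the receptors for interleukin-1, interleukin-33 and interleukin-36, was at 136, 190.2, 130.2 and 209.6 CPM in eGFP replicates 1 to 4 and at 159.6, 169, 264 and 148 CPM in Lpcat3 replicates 1 to 4. Its highest value was in Lpcat3 replicate 3 and its lowest in eGFP replicate 3, the reverse of Il1rn. The log2 fold change was 0.15 (SE 0.22, 95% interval -0.34 to 0.64), and the log2 ratio of Il1rap to Il1r1 differed by 0.16 (exact permutation p = 0.571, adjusted over 5 ratios 0.714).

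Both inflammasome genes had lower means in the Lpcat3 group, with overlap. Nlrp3, the sensor, was at 4.24, 1.92, 4.75 and 1.40 CPM in eGFP replicates 1 to 4 and at 2.80, 1.55, 2.25 and 1.39 CPM in Lpcat3 replicates 1 to 4. The eGFP libraries formed a high pair, replicates 1 and 3, and a low pair that overlapped the Lpcat3 libraries. Its log2 fold change was -0.63 (SE 0.41; 95% interval -1.55 to 0.29; edgeR adjusted p = 0.662), -0.34 without eGFP replicate 3 and -0.08 with the code division in the fit. Within codes 1290 and 1317 the Nlrp3 difference of mean log2 CPM was -0.27, resting on Lpcat3 replicate 1 alone in its group. Within codes 1344 and 1345 it was 0.26, resting on eGFP replicate 4 alone in its group. Casp1, the protease, was at 4.68, 3.43, 6.42 and 3.39 CPM in eGFP replicates 1 to 4 and at 3.57, 2.92, 3.45 and 2.67 CPM in Lpcat3 replicates 1 to 4. eGFP replicates 1 and 3 were again highest, and the log2 fold change was -0.51 (SE 0.22; 95% interval -1.01 to -0.0098; unadjusted p 0.0465, edgeR adjusted p = 0.587), or -0.29 without eGFP replicate 3.

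**Figure D2:**
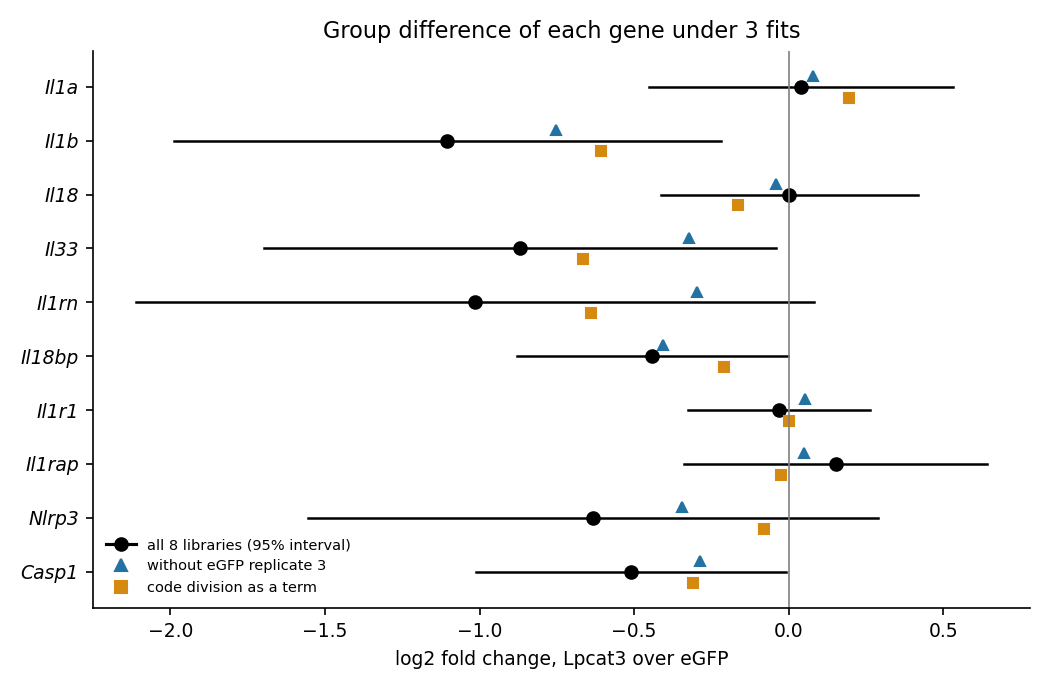
Log2 fold change, Lpcat3 over eGFP, of the 10 genes in the edgeR fit of all 8 libraries (points with 95% intervals) and in 2 alternatives without intervals. The estimates for Il33 and Il1rn moved to -0.32 and -0.30 without eGFP replicate 3, and that for Nlrp3 to -0.08 with the code division in the fit.

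The genes were ranked by level only per length, as CPM per kilobase of annotated exon (all exons of a gene merged, GENCODE M21 on GRCm38). As means over the 8 libraries, Il1rap was highest at 15.5, followed by Il1r1 at 9.60, Il18bp at 9.12 and Il18 at 7.82 CPM per kb. Il1a at 4.12, Il1rn at 3.61, Casp1 at 2.55, Il1b at 1.88, Il33 at 1.53 and Nlrp3 at 0.626 CPM per kb followed. Receptor subunits and the interleukin-18 pair thus stood above Il1b and the sensor in these libraries. Between neighbours in this order, only Il1rap over Il1r1 and Il18 over Il1a had ranges over libraries that did not overlap. Il33 exceeded Nlrp3 in 8 of 8 libraries although their ranges overlapped, and the other neighbours did not differ beyond their spread. Values per length depend on the annotated exons, which for Il1rap cover 11360 bases.

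**Figure D3:**
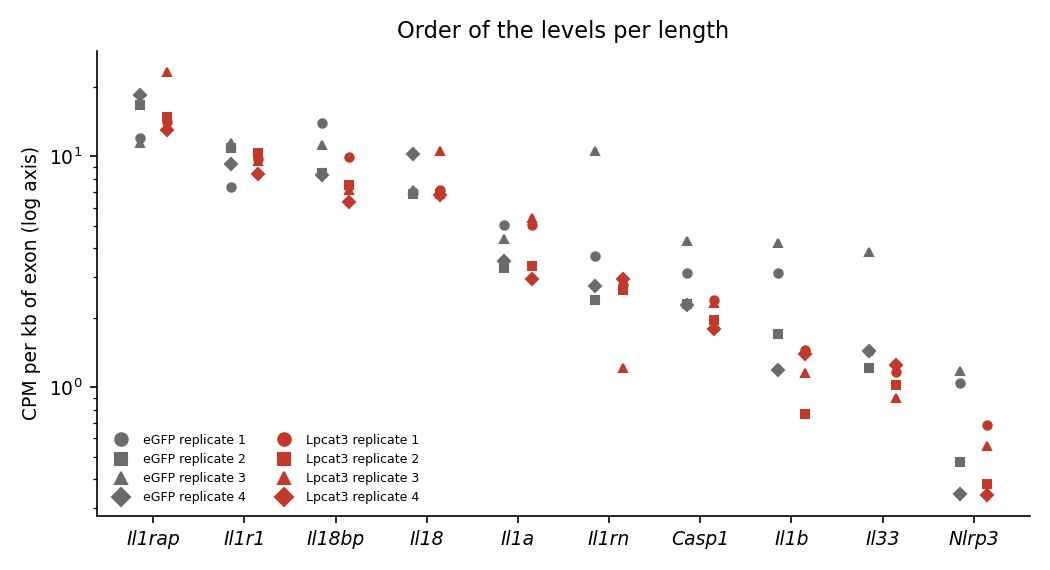
CPM per kilobase of exon (log axis) of the 10 genes in each library, ordered by their mean. Il1rap, at 11.5 to 23.2, was above every other gene's mean, and Nlrp3, at 0.343 to 1.17, was lowest.

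Macrophage markers had lower means in the Lpcat3 group beside the members that did. In bulk liver, fewer cells of a type and less RNA per cell cannot be told apart. All 10 macrophage markers (such as Adgre1, Cd68 and Csf1r) had lower means in the Lpcat3 group, none of them called (0 of 10 by edgeR), and none was at 0. Their summed level was 857, 501, 838 and 503 CPM in eGFP replicates 1 to 4 and 531, 417, 359.5 and 396 CPM in Lpcat3 replicates 1 to 4. The 2 eGFP libraries with the highest macrophage sums, replicates 1 and 3, were also the highest for Il1b, Il18bp, Casp1, Nlrp3 and Il1rn. Relative to that sum, Il1b reads were 0.702%, 0.652%, 0.966% and 0.460% in eGFP replicates 1 to 4 and 0.527%, 0.360%, 0.627% and 0.683% in Lpcat3 replicates 1 to 4. The groups overlapped in this ratio (difference of mean log2 ratio -0.33; exact permutation p = 0.343, adjusted over 5 ratios 0.571). It was -0.14 without Lpcat3 replicate 2, -0.16 without eGFP replicate 3 and -0.51 without eGFP replicate 4. For Il18bp the ratio to the macrophage sum had the higher mean in the Lpcat3 group, with overlap (log2 difference 0.20; exact permutation p = 0.114, adjusted over 5 ratios 0.571). It was 0.13 without eGFP replicate 3, 0.08 without both libraries numbered 3 and 0.27 without Lpcat3 replicate 4. With Adgre1, Cd68 and Csf1r alone as markers it was 0.25. The part of macrophage content in these levels was not tested.

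Other cell types were read from lists in the same way. Kupffer cell markers, of resident macrophages, summed to 173 to 215 CPM in the eGFP group and 93.4 to 178 CPM in the Lpcat3 group, with 5 of 6 lower. Neutrophil markers summed to 7.52 to 21.2 CPM and 4.99 to 8.65 CPM, with eGFP replicate 3 highest, and 4 of 4 tested were lower. Dendritic cell markers summed to 18.3 to 31.9 CPM in the eGFP group and 12.1 to 22.3 CPM in the Lpcat3 group. Stellate cell markers, of a structural cell known to express Il33, summed to 494 to 592 CPM and 441 to 618 CPM, with 3 of 6 lower. Endothelial markers summed to 384 to 422 CPM and 305 to 385 CPM, with 6 of 6 lower. Hepatocyte markers had the higher mean in the Lpcat3 group in 8 of 8 cases, and their sum was largest in Lpcat3 replicate 3 and eGFP replicate 4, the libraries with the highest Il18 and Il1rap. Cholangiocyte markers, of bile duct cells, summed to 37.7 to 85.4 CPM in the eGFP group and 38.9 to 125 CPM in the Lpcat3 group, with 4 of 5 higher. T and NK cell markers summed to 2.66 to 7.54 CPM and 2.67 to 4.17 CPM, with 4 of 5 tested lower, and B cell markers to 2.45 to 3.81 CPM and 2.01 to 3.23 CPM, with 4 of 4 lower. No marker in these lists was at 0 in all libraries, and none was called by edgeR. Their part in the results was not tested.

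**Figure D4:**
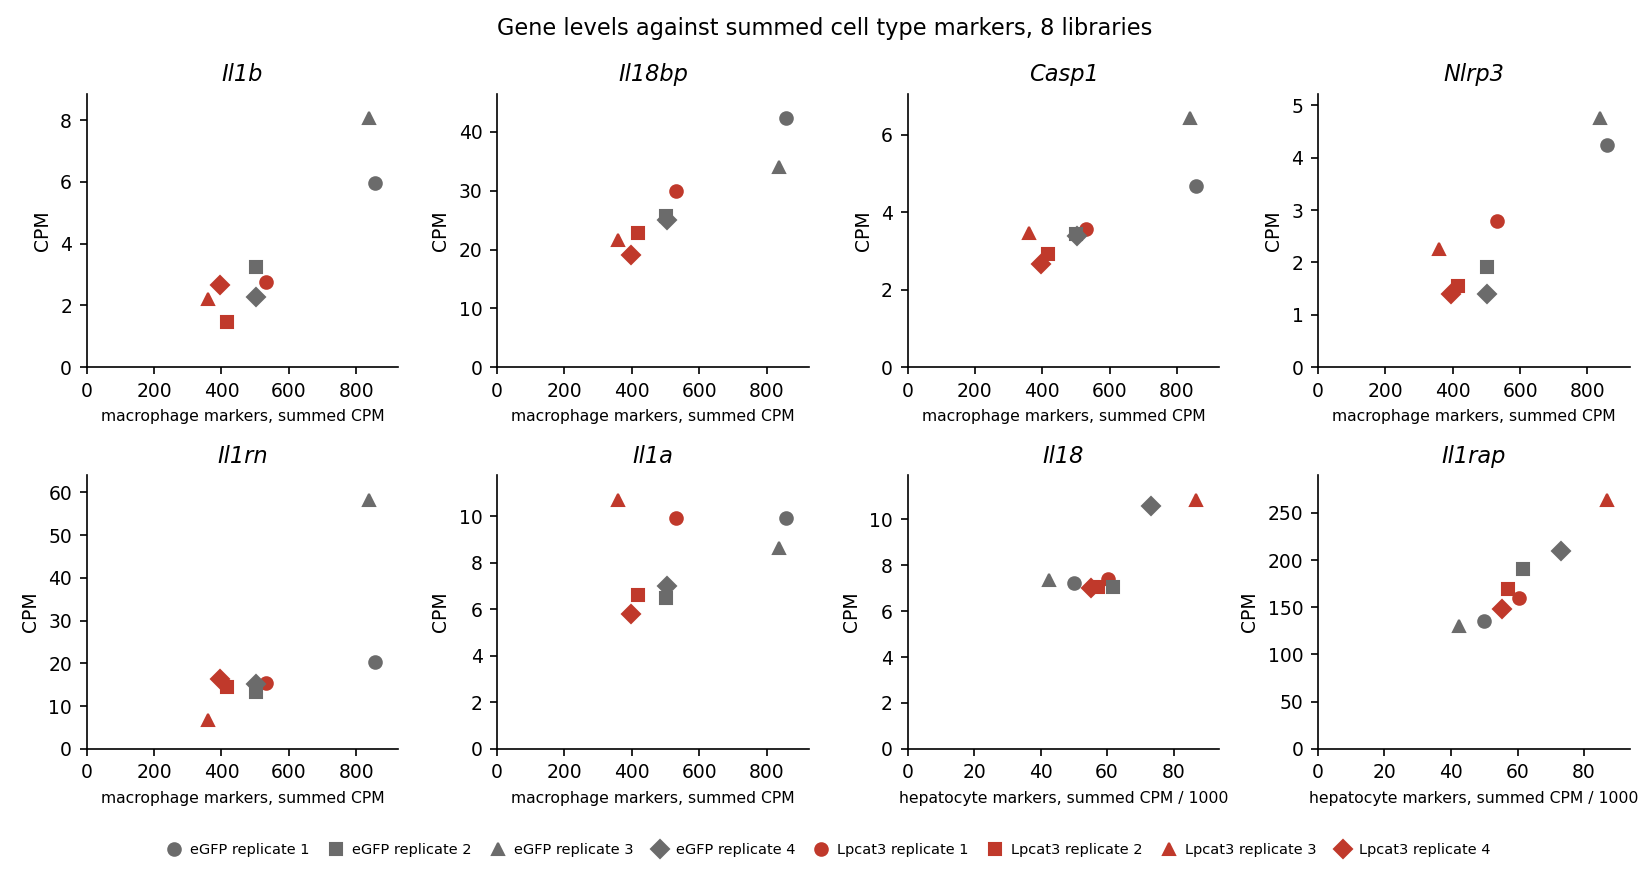
CPM of 8 genes in each library against the summed CPM of macrophage markers (first 6 panels) or of hepatocyte markers (Il18 and Il1rap). eGFP replicates 1 and 3, with macrophage sums of 857 and 838 CPM, lie apart at the upper right for Il1b, Il18bp, Casp1 and Nlrp3.

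The genes whose pattern over the 8 libraries was most like each member were taken by Pearson's r of log2 CPM, among 12590 genes at 1 CPM or more. For Il1b these were Nlrc4 (r = 0.99), another inflammasome sensor, Wars (r = 0.98), a tRNA synthetase, and Zbtb4 (r = 0.97). For Il1a they were Irgm1 (r = 0.98), an interferon-inducible GTPase, Kctd6 (r = 0.97) and Tgtp2 (r = 0.96), another interferon-inducible GTPase. Il1rn was most like Vim, a filament protein, S100a8, a neutrophil protein, and Aox1, an oxidase (r = 0.99, 0.99 and 0.98). Il33 was most like Rab35, Angpt2 and Tmem184b (r = 0.99, 0.99 and 0.98). Il18bp was most like Myo9a, Cyba, an NADPH oxidase subunit, and C1qb, a complement gene of macrophages (r = 0.99, 0.98 and 0.98). Casp1 was most like Sgk3, Fgr and Mefv (r = 0.98, 0.98 and 0.98), and Nlrp3 most like Birc3, Zbtb6 and Ampd2 (r = 0.98, 0.97 and 0.97). Il18 was most like Spag7, Trub1 and Carhsp1 (r = 0.98, 0.96 and 0.96), Il1r1 most like Evc2, Phkg2 and Zfp775 (r = 0.94, 0.93 and 0.93), and Il1rap most like Ces1b, a carboxylesterase, Pecr and Ehbp1 (r = 0.99 each). With so many candidates over 8 libraries such values arise readily, and the points share the same libraries. Of the members, 6 were highest in eGFP replicate 3 (Il1b, Il33, Il1rn, Il1r1, Nlrp3 and Casp1). Il1a, Il18 and Il1rap were highest in Lpcat3 replicate 3. The weight of single libraries on these values was not tested.

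The rest of the pathway was read from 4 lists. They too were chosen with earlier results of these data known, so their shares beside those of all genes are no test. Of the other ligands and receptors of the family, 12 of 13 were matched to a row, 4 had no read in any library, and 4 had enough reads to be tested. Of these, 2 were higher and 2 lower, with no call (0 of 4). Sigirr, a receptor that restrains signalling, was at 5.07 ± 0.36 and 5.23 ± 0.74 CPM in the eGFP and Lpcat3 groups. Il1rl2, the interleukin-36 receptor, was at 1.27 ± 0.18 and 1.45 ± 0.37 CPM, and the interleukin-18 receptor subunits Il18r1 and Il18rap at 0.794 ± 0.23 and 0.697 ± 0.219 CPM and at 0.977 ± 0.623 and 0.693 ± 0.148 CPM.

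Of the other inflammasome and pyroptosis genes, 22 of 23 were matched and tested, with 16 lower, 6 higher and a median log2 fold change of -0.19. None was called (0 of 22), and 7 were lower at an unadjusted p under 0.05 in edgeR, where over all genes 5.18% were lower by that measure and 51.5% were below 0. The median was -0.12 without eGFP replicate 1 and -0.11 with the 4 codes in the fit, and the code division left 13 lower. Naip6, a partner of the Nlrc4 inflammasome, was at 12.2 ± 1.69 and 9.42 ± 0.47 CPM in the eGFP and Lpcat3 groups without overlap (log2 fold change -0.38, SE 0.11; edgeR adjusted p = 0.564), and Naip5 at 10.7 ± 2.03 and 7.96 ± 1.32 CPM. The Naip genes are near-identical copies, so their reads may be divided between them. Aim2, a DNA sensor, was at 7.72 ± 1.43 and 5.17 ± 1.32 CPM, and Nlrc4 at 2.26 ± 0.78 and 1.42 ± 0.17 CPM. Pycard, the adaptor that links Nlrp3 to Casp1, and Gsdmd, the pore of pyroptosis, were chosen after their values were seen. Pycard was at 2.27 ± 0.61 and 2.13 ± 0.25 CPM and Gsdmd at 10.6 ± 0.8 and 9.97 ± 1.95 CPM, and for both genes the groups overlapped.

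The genes of signalling from the receptors were nearly level, with 12 of 18 lower, 6 higher, 0 called and a median log2 fold change of -0.05. Without eGFP replicate 3 the median was 0.02, with 7 lower. Those with the smallest p were Nfkb1, an NF-kB subunit, at 35.8 ± 10.3 and 28.01 ± 1.24 CPM in the eGFP and Lpcat3 groups, Irak3, an inhibitor of the pathway, at 5.53 ± 2.75 and 3.48 ± 0.74 CPM, Tab2 at 126 ± 11.1 and 114 ± 5.87 CPM, and Chuk at 149 ± 12.3 and 167 ± 18.7 CPM.

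Genes that interleukin-1 is known to induce were lower in 17 of 20 tested cases, with 3 higher, a median log2 fold change of -0.31 and 0 called by edgeR. At an unadjusted p under 0.05 there were 3 lower. Over all genes 51.5% were below 0 and 5.18% were lower at that p. With the 4 codes in the fit the count of lower genes was 11 with a median of -0.03. With the code division it was 18 with a median of -0.12, and without eGFP replicate 3 it was 16 with a median of -0.19. Nfkbiz, a co-regulator of NF-kB induced by interleukin-1, was at 22.1 ± 1.51 and 16.7 ± 1.26 CPM in the eGFP and Lpcat3 groups without overlap. Its log2 fold change was -0.40 (SE 0.08; edgeR adjusted p = 0.564), and it was the 1 gene of the list that DESeq2 called (adjusted p = 0.0262). Over all 17438 genes DESeq2 called 48. Cxcl1, a neutrophil attractant, was at 10.6 ± 3.27 and 5.10 ± 1.79 CPM, and Orm2, an acute phase protein with close paralogs that may share its reads, at 104 ± 15.9 and 77.7 ± 18.3 CPM. Cebpd, a transcription factor of the acute phase response, was at 5.76 ± 1.49 and 7.72 ± 1.21 CPM. Saa1 and Saa2, the acute phase proteins serum amyloid A, chosen after their values were seen, were at 35.6 ± 7.30 and 28.3 ± 7.17 CPM and at 23.5 ± 4.66 and 20.04 ± 4.74 CPM. They are near-identical copies whose reads may be divided between them, and for both the groups overlapped.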

How the data were processed

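Total RNA of 8 liver samples (4 per group) was depleted of ribosomal RNA and sequenced as stranded single reads, per the labels' protocols. The authors deposited raw counts per gene under NCBI gene numbers. The submitters' processing notes name bcl2fastq 2.20, DESeq2 and GRCm39. No aligner, counter or strand setting was given in the sources used here. Symbols came from RefSeq (GRCm38.p6) and matched 39397 of 40838 rows. The members and lists were chosen with earlier results of these data known. Counts were filtered with filterByExpr (minimum count 10), scaled with TMM and fitted across all 17438 remaining genes with edgeR 4.0.16 (glmQLFit, robust, group as the only term), adjusted by Benjamini-Hochberg and called at 0.05. SEs and intervals come from that fit. The fit was run on simulated counts with the same dispersion in every gene and no outlying library. These data differ in both, so that run does not cover their spread. Log2 CPM used a prior count of 2. Ratios (1 added to each count of a gene) were compared by two-sided exact permutation over 70 relabellings, smallest p 0.0286, adjusted over 5 ratios. From each pathway list up to 4 genes with the smallest p were named, and for each member the 3 genes most like it. Alternatives were DESeq2 1.42.0, limma 3.58.1 (voom with quality weights), other scalings and filters, a replicate block, the title codes and each library left out. Libraries of 1 group differed by more than sampling noise (chi-square per degree of freedom 19.2 to 119).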

Additional observations from a re-analysis of the deposited data

Results flagged for a closer look

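In groups of 4 libraries a value was taken up when its gap to the next exceeded 0.829 of the whole range (Dixon's test). For independent, normally distributed values this happens in about 1 of 20 groups. Of 30 groups looked at, 5 held such a value. The rule was applied to CPM and to plain ratios, not to their logarithms, and the groups share the same libraries. Normality was not tested, so the 5 of 30 cannot be compared with that rate. Il18 was at 10.6 CPM in eGFP replicate 4, where the other eGFP libraries had 7.07 to 7.35 CPM, and at 10.8 CPM in Lpcat3 replicate 3, where the others had 7.00 to 7.40 CPM. Il33 was at 11.1 CPM in eGFP replicate 3, against 3.51 to 4.13 CPM. Il1rn was at 58.2 CPM in the same library, against 13.2 to 20.4 CPM. The ratio of Il1rap to Il1r1 reads was 4.35 in Lpcat3 replicate 3, against 2.56 to 2.76.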

How the results depend on the processing

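No member passed an adjusted p of 0.05 under any of 189 alternatives (lowest 0.276, with DESeq2), and neither did a ratio in 52, but there the design decides: the smallest exact p of 0.0286 becomes 0.143 for a single ratio adjusted over 5. The direction was kept in all alternatives run for Il1b, Il33, Il1rn, Il18bp, Nlrp3 and Casp1. The within-code differences are not among these alternatives, and within codes 1344 and 1345 that of Nlrp3 was 0.26. The direction turned in 27 for Il1a, Il18, Il1r1 and Il1rap, whose estimates lie near 0, and in 5 for the ratios. The cause was not tested. Scaling by library totals gave -0.091 for Il1a and -0.12 for Il18, where the median of all genes was also lower, at -0.13. A minimum count of 50 gave -0.0052 for Il18 and left Nlrp3 untested. Voom gave -0.079 for Il1a, -0.029 for Il18 and 0.017 for Il1r1. The 4 codes in the fit gave -0.23 for Il18 and -0.23 for Il1rap, and the code division -0.16 for Il18, 0.0013 for Il1r1 and -0.024 for Il1rap. Without both libraries numbered 3, an alternative chosen after seeing the data, the values were -0.068 for Il1a, -0.21 for Il18, 0.053 for Il1r1, -0.17 for Il1rap and -0.21 for the log2 ratio of Il1rap to Il1r1. Leaving out 1 library at a time gave -0.11 to 0.18 for Il1a, -0.17 to 0.16 for Il18, -0.14 to 0.052 for Il1r1, -0.069 to 0.28 for Il1rap, -0.12 to 0.44 for the log2 ratio of Il1rn to Il1b and -0.033 to 0.29 for that of Il1rap to Il1r1.

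Over all genes, where the fit of 8 libraries called 1, library totals called 3, DESeq2 48, the fit without robust estimation 2, and no filter, the 4 codes, the code division and the absence of both libraries numbered 3 called 0 each. Leaving out 1 library gave 0 to 7, the highest without Lpcat3 replicate 1. Replicate numbers are shared between the groups, but deviations of same-numbered libraries correlated at 0.28, -0.07, -0.40 and -0.12, so the numbers were not taken to pair samples. The fit with the replicate block called 0 genes and gave -0.99 for Il1b. Counts of 33 to 217 reads limit Il1b and 34 to 128 reads limit Nlrp3.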
